A study of Mus musculus with 4 samples.

Results

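Nanos3, Meioc, Prdm9, Odf1 and Txndc2 are 5 genes of germ cell development that were named for a CHD4 interval in mouse cells labelled spermatogonial. Every row of the authors' peak list that carries 1 of these symbols was taken, and rows that share chromosome, start and end were counted as 1 interval. This gave 10 intervals of 1849, for 5 of the 1517 genes named: 6 intervals for Txndc2 and 1 for each of the others. The genes were chosen by the peak call itself, that is by a CHD4 over IgG enrichment past the caller's q threshold, so having an interval is not a result. Their positions, folds and fragment numbers are given as a description, with no test.

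The data come from CUT&Tag, a method that tethers the transposase Tn5 to an antibody bound on chromatin, which cuts and tags the DNA nearby. In 2 samples the antibody was against CHD4, and in 2 control samples it was labelled Rabbit Anti-Mouse IgG H&L (HRP). Both kinds of sample came from C57BL/6 mice carrying no labelled mutation or treatment, and the protocol starts from digested testes with no sorting step described in the sources used here. The submitters called 1 peak list of CHD4 over IgG, so no interval has a value per sample and no error between replicates can be given.

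Male germ cells begin as undifferentiated spermatogonia, which include the stem cells, then commit to differentiation, enter meiosis as spermatocytes, recombine their chromosomes, and remodel into spermatids that build the acrosome and the tail. CHD4 is a chromatin remodelling ATPase of the NuRD complex, which also removes acetyl groups from histones, and is known for binding promoters and enhancers and for limiting transcription of genes of other cell states. Nanos3 is an RNA-binding protein of early germ cells and spermatogonia. Meioc keeps cells in the meiotic programme, and Prdm9 is the histone methyltransferase that marks recombination sites. Odf1 is a protein of the outer dense fibres of the sperm tail, and Txndc2 is a thioredoxin of the developing tail.

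By the authors' annotation, the interval at Prdm9 was the only 1 of the 10 within 1 kb of a transcript start, a class that holds 34.1% of all intervals. It lay on chromosome 17, 15564542 to 15564740 (mm10), 188 bp upstream of the Prdm9 start on the minus strand. The RefSeq promoter window of Prdm9 (GRCm38.p6, chr17:15564305-15564604, minus strand, from 250 bases before the start to 50 after it) is shown because the interval reaches into it. Capitals mark the 63 bases that lie inside the interval, and the remaining 136 bases of the interval lie further upstream.

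Prdm9: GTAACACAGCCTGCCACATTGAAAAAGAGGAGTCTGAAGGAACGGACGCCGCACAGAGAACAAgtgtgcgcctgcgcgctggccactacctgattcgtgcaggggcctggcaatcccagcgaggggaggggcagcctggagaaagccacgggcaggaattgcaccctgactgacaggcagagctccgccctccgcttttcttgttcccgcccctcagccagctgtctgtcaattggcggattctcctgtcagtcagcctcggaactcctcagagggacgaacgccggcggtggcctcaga

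The summit of the interval lay 315 bp upstream of the start, outside this window. The 63 bases inside the interval had a GC content of 50.8% and held 3 CpG dinucleotides, and the whole window had 61.7% and 18. The median over 21263 promoter windows of protein-coding genes in the table was 56.3% GC and 13 CpG, and over the 377 windows that overlap a CHD4 interval it was 60.7% and 21. Of 5 motifs searched on both strands, the GC box GGGCGG was found at 66 and 44 bp upstream of the start, the E2F-like core TTCCCGC at 47 bp and CCAAT at 19 bp, each position being that of its leftmost base as printed. The GC box at 44 bp and the E2F-like core overlap. TATAAA and CACGTG were not in the window. Among all windows 46.2% held GGGCGG, 38.2% CCAAT, 12.6% TATAAA, 7.84% CACGTG and 5.95% TTCCCGC. In the 377 windows that overlap a CHD4 interval these shares were 73.5%, 46.2%, 6.10%, 10.9% and 10.1%, in the same order. All matches at Prdm9 lay in the lower-case part, between the interval and the start.

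No promoter window of Nanos3, Meioc or Txndc2 overlapped a member interval, and no window was found for Odf1. The windows of Nanos3, Meioc and Txndc2 differed in base composition. Meioc had 28 CpG in its 300 bases and Nanos3 had 3. The Txndc2 windows, at starts 65642204 and 65639756, had 4 and 0. The table lists a further Prdm9 start at 15563331, whose window held 9 CpG and did not reach the interval.

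Nanos3, the earliest gene of the group in development, had the most CHD4 fragments and the lowest fold. Its interval lay on chromosome 8, 84192021 to 84192645, in sequence annotated as distal intergenic, 6804 bp upstream of the transcript start used by the authors. The RefSeq start of Nanos3 is further away, at 15.5 kb. The fold, which is the caller's ratio of CHD4 signal to IgG background at the summit, with 1 added to each, was 3.40, higher than in 11% of all intervals. The summit held 69 CHD4 fragments, with an exact 95% Poisson interval of 53.7 to 87.3, and 8 fragments were expected from IgG. Fragment numbers were recovered from the deposited fold and p-value, and their intervals cover counting error only. Here and below, CHD4 fragments are unscaled, while the IgG expectation is at the lower depth of the IgG library. For the fold, CHD4 fragments are first multiplied by 0.429. The CHD4 fragments exceeded those of 93.5% of the list and the IgG expectation exceeded that of 92.9%, so signal was high with both antibodies at this place.

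Within 100 kb of the Nanos3 interval were 3 further intervals, none named for Nanos3. A pair named for Mir23a, whose cluster encodes miR-23a, miR-27a and miR-24-2, had folds of 3.76 and 3.78, and 1 at the Ccdc130 promoter had 3.54. These folds were all close to that of Nanos3 and below the list median of 4.76. The Nanos3 interval and the next 2 spanned 11.6 kb. Of 1808 runs of 3 neighbouring intervals in the list, 28 were as short or shorter, this one included. Another germ cell gene, 4930432K21Rik, listed with the synonym Brme1 and needed for meiotic recombination, lies beyond Nanos3, 19.4 kb from the interval, and was not named for any interval.

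By −log10 q Meioc had the strongest call of the 4 genes with a single interval. The interval was distal intergenic, on chromosome 11 from 102643918 to 102644327, and 19389 bp upstream of the Meioc start. Its fold was 5.61 (4.23 to 7.31, from the Poisson interval of the fragments), above 74.2% of the list. It held 50 CHD4 fragments (37.1 to 65.9) over an IgG expectation of 3, and its −log10 q of 6.87 was above 90.8% of the list. The coding genes on either side were Fzd2, a Wnt receptor, 35.9 kb away, and Meioc, 21 kb away by gene boundary. Fzd2 had its own promoter interval of fold 4.33.

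Prdm9 had the weakest call of those 4 by the same measure. The fold was 3.45 (2.38 to 4.87), above 11.6% of the list and above 22.3% of the 631 intervals within 1 kb of a start. There were 28 CHD4 fragments (18.6 to 40.5), and IgG gave an expectation of 2.77. The q was 0.033, and 8.11% of intervals had a lower −log10 q. No other interval lay within 100 kb, and the nearest, named for Rgmb, was 776 kb away.

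Odf1, the tail protein gene, had an interval downstream of the gene. It lay on chromosome 15, 38253866 to 38254113, and 34663 bp from the Odf1 start, in exon 2 of 3 of a transcript with no gene name in the list. It overlapped no gene of the RefSeq table. Odf1 ended 27.1 kb away on one side, and the gene of Klf10, a zinc finger transcription factor, lay 37.4 kb away on the other. The fold was 4.98 (3.56 to 6.80), above 57.2% of the list, with 35 CHD4 fragments (24.4 to 48.7) and an IgG expectation of 2.21. The nearest other interval was 203 kb away.

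**Figure D1:**
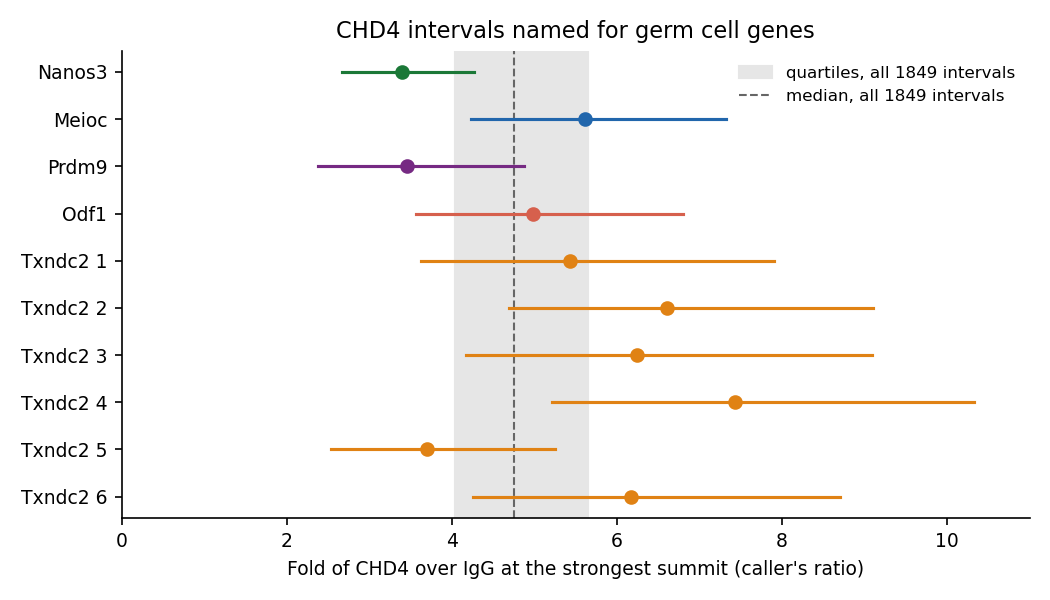
Fold of CHD4 over IgG (x axis, the caller's ratio at the strongest summit) for the 10 intervals, ordered by the stage of their gene; points are the deposited folds, and lines the exact 95% Poisson intervals of the CHD4 fragments with the IgG expectation held fixed. Nanos3, Prdm9 and Txndc2 interval 5 sit below the list median of 4.76 (dashed, with quartiles in grey), and the other 7 above it.

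Txndc2 accounted for 6 of the 10 intervals, and 5 of these 6 had folds above the list median. Only Tns3 (8), Dlgap1 (7) and Tex14 (7) were named for more intervals, and Ccnl1 and D230017M19Rik were named for 6 as well, while 84.7% of named genes had 1. The 6 intervals spanned 68.2 kb of chromosome 17, from 65635912 to 65704148. Of 1748 runs of 6 neighbouring intervals in the list, 15 were as short or shorter, this one included, and the median run spanned 5025 kb. Runs overlap one another and were chosen after values were seen, so such counts are a description. The 6 intervals share a locus and are not independent.

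The intervals named for Txndc2 fell into 3 kinds of place. Interval 1 lay past the 3′ end of the gene, intervals 2 and 3 lay within the RefSeq gene near its 5′ end, and intervals 4, 5 and 6 lay in introns of the neighbouring gene Rab31, a GTPase of vesicle traffic. Txndc2 is on the minus strand, so the numbering of the intervals, 1 to 6 along the chromosome, starts at its 3′ side. The naming follows the nearest transcript start, since the start of Rab31 is at the far end of that 121 kb gene.

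Interval 1, past the 3′ end (65635912 to 65636204), had a fold of 5.43 (3.63 to 7.90) with 23 CHD4 fragments and 1 expected from IgG. It was 1.3 kb from the gene boundary. Interval 2 (65647298 to 65647556) had a fold of 6.61 (4.68 to 9.10) from 33 fragments over 1.29 and a −log10 q of 6.19. Interval 3 (65648203 to 65648834) had a fold of 6.25 (4.17 to 9.09) from 23 fragments over 0.738.

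The annotation of intervals 2 and 3 depends on the transcript model. The authors' annotation places them 5130 and 6035 bp upstream of the Txndc2 start and classes them as distal intergenic and as downstream sequence. Interval 3 lay 2.89 kb past the 3′ end of Rab31. The RefSeq table gives Txndc2 a span of 65637505 to 65648874, which holds both intervals whole. The nearest start of a RefSeq promoter window of Txndc2, at 65642204, was 5.09 and 6.00 kb from them, close to the authors' distances. Interval 3 ends 40 bp inside the 5′ boundary of the RefSeq span. Measured from that boundary, it would also lie within 1 kb of a gene start. The 632 bp of this interval are wider than 95.8% of all intervals and have 2 summits, at 137 and 492 bp from the interval's left edge, with folds of 6.25 and 4.48. A gap of 0.646 kb separates interval 2 from interval 3.

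The 3 intervals inside Rab31 included both the highest and the lowest fold of the Txndc2 group. Interval 4, in intron 5 of 6 (65681738 to 65682464), had a fold of 7.43 (5.22 to 10.3), above 94.3% of the list, with 31 CHD4 fragments and 0.923 expected from IgG. It was the widest of the 10, at 727 bp, with 3 summits, at 169, 407 and 528 bp, whose folds were 4.76, 7.43 and 7.43. All 3 summits held 31 CHD4 fragments, and the IgG expectation was 2 at the leftmost and 0.923 at the other two. The difference in fold along this interval is thus one of IgG expectation.

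A close pair lay in intron 3 of Rab31, 1.44 kb apart. Interval 5, from 65701995 to 65702308, had a fold of 3.70 (2.54 to 5.25) with 27 CHD4 fragments and 2.4 expected from IgG. Interval 6, from 65703751 to 65704148, had a fold of 6.17 (4.26 to 8.71) from 28 fragments over 1.11. CHD4 fragment numbers in the pair were nearly equal, and the Poisson intervals of the folds overlap. The weaker of the pair had the highest q of the 10 intervals, 0.0384, against a largest q of 0.0492 in the whole list, for an interval named for Cirbp.

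**Figure D2:**
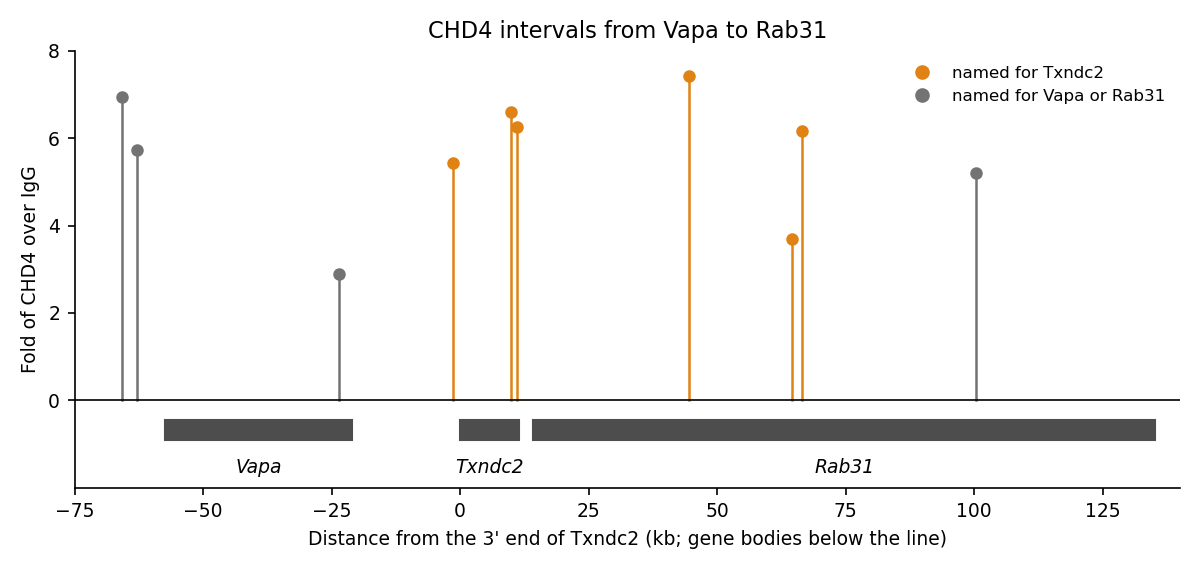
Fold of CHD4 over IgG (y axis) for the intervals between Vapa and Rab31, drawn at their midpoints by distance from the 3′ end of Txndc2 in kb (x axis), with RefSeq gene bodies as bars below the line. The 6 intervals named for Txndc2 (orange, 3.70 to 7.43) lie around that gene and inside Rab31, with 4 named for Vapa or Rab31 (grey, 2.90 to 6.93) on either side.

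The cluster went beyond the intervals named for Txndc2. With the flanking intervals of Vapa, a protein of contacts between the endoplasmic reticulum and other membranes, and of Rab31, 10 intervals stood in 167 kb, and 2 of 1668 runs of 10 intervals were as short, this one included. Of the flanking 4, a pair beyond the 3′ end of Vapa had folds of 6.93 and 5.74, and the interval in intron 1 of Rab31 had 5.20. By the authors' annotation, the Vapa promoter had the only interval of the 10 within 1 kb of a start. Its fold of 2.90 was the lowest of the cluster, with 72 CHD4 fragments and 10 expected from IgG.

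Across the 10 member intervals the median fold was 5.52, against 4.76 over all 1849, and 7 of 10 exceeded the list median. Members held 23 to 69 CHD4 fragments (median 29.5, against 27 in the list) over 0.738 to 8 expected from IgG (median 1.75, against 1.31). All 10 had at least 20 CHD4 fragments, as had 74.4% of the list. A q of at most 0.01 was met by 8 of 10, against 77.3% of the list. Several summits were found in 2 of 10, against 9.84%, and 5 of 10 lay within 10 kb of the start they were named for, against 58.7%. Within 1 kb of a start in the authors' annotation lay 1 of 10, against 34.1%. With 10 intervals, of which 6 are neighbours, none of these differences from the list was tested.

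Fold and CHD4 fragment number ordered the members differently. By fragments the order was Nanos3, Meioc, Odf1, Txndc2 intervals 2 and 4, and then Prdm9 and the rest of Txndc2. By fold Txndc2 intervals 4, 2, 3 and 6 led, and Prdm9 and Nanos3 were lowest. The caller adds 1 to signal and background before it divides, which lowers the fold most where the IgG expectation is small. As a ratio scaled for depth but without the added 1, Txndc2 intervals 4, 3, 2 and 6 had 14.4, 13.4, 10.9 and 10.8, Prdm9 had 4.34 and Nanos3 had 3.70. IgG expectation was 2.21 to 8 at the 4 genes with a single interval and 0.738 to 2.4 at Txndc2, so these ranges overlap. The upper bound of the Nanos3 fold, 4.27, was below the lower bounds of Txndc2 intervals 2 and 4, 4.68 and 5.22, and that of Prdm9, 4.87, was below the lower bound of Txndc2 interval 4. All other pairs of the 10 had overlapping bounds, and so had all neighbours in the order of folds. The bounds hold the IgG expectation fixed and leave out its error, so whether the folds differ was not tested.

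**Figure D3:**
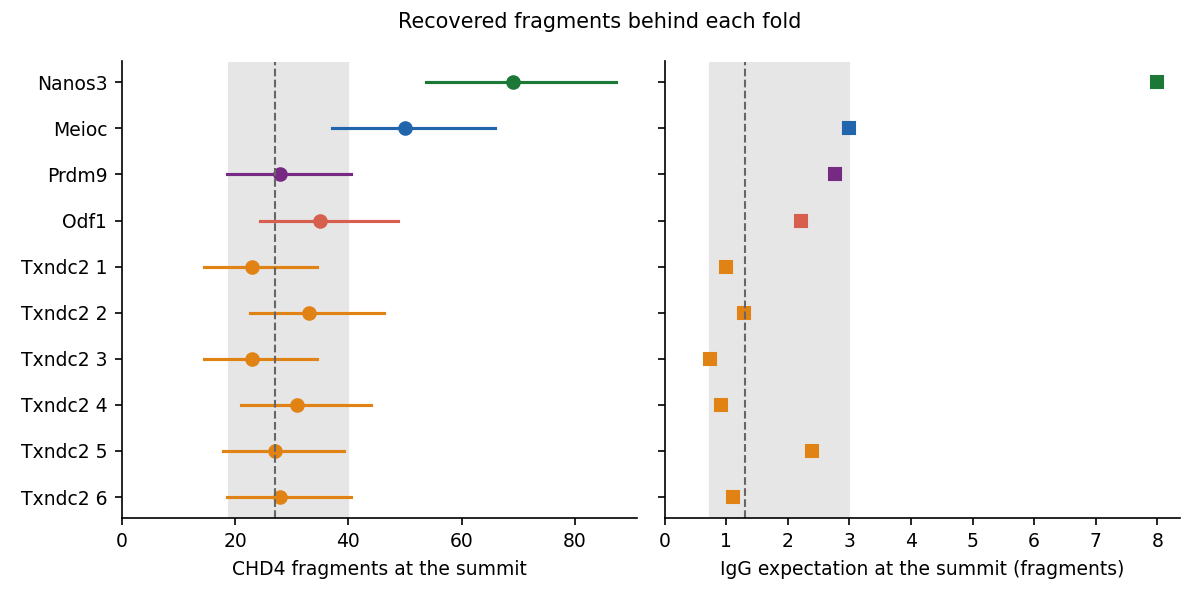
CHD4 fragments recovered at each summit with exact 95% Poisson intervals (left) and the IgG expectation in fragments (right), for the 10 intervals; dashed lines and grey bands are the median and quartiles of all 1849. Nanos3 has the most of both, with 69 fragments over 8, and Txndc2 intervals have 23 to 33 over 0.738 to 2.4. CHD4 fragments are unscaled and the IgG expectation is at the lower depth of the IgG library, so the panels do not share a scale.

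The other genes of germ cell development were counted by stage, from 11 lists that together hold 189 genes, the 5 members included. Of these, 9 (4.76%) were named for an interval, against 6.1% of 21779 protein-coding genes. The other 4 were Dusp6 and Spry4, which dampen ERK signalling, Kitl, the ligand of the Kit receptor, and Tex14, a protein of the bridges between germ cells. The 7 Tex14 intervals had folds of 4.32 to 11.1, and those of 7.99, 10.7 and 11.1 were above the fold of every interval of the 5 members. Those of 10.7 and 11.1 were annotated to single-exon transcripts with no gene name in the list, 15.7 and 43.9 kb from the Tex14 start. At that start itself the fold was 4.32, below the list median of 4.76. Kitl is made by Sertoli cells and stands in the differentiation list for its pathway. The lists were drawn up with earlier results of these data known, so the counts are a description.

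By stage, 7 of the 11 lists had a named gene, and the shares ran from 0 to 10.7%, against 6.1% of all coding genes. The early germ cell, meiotic entry, meiotic recombination and sperm tail lists were named only through members, which were chosen for having an interval. Nothing is therefore read from the counts by stage. Undifferentiated spermatogonia had 3 of 28 genes: Nanos3, chosen for its interval, and Dusp6 and Spry4, which dampen ERK signalling. Nanos3 was also the 1 of 18 in the early germ cell list. Differentiating spermatogonia had 1 of 13, Kitl, at 108 kb with a fold of 6.50. Meiotic entry had 1 of 12, Meioc, and meiotic recombination 1 of 33, Prdm9. Sperm tail genes had 2 of 24, Odf1 and Txndc2, and the piRNA and pan-germ cell list 1 of 19, Tex14. None was named among 18 synaptonemal complex and cohesin genes, 13 genes of pachytene transcription, 12 of spermatid chromatin and 13 of the acrosome and sperm head. A count of 0 of 18 allows a share of up to 18.5% and 0 of 12 up to 26.5% (exact binomial 95% intervals, for counting error only).

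Requiring more of an interval changed the counts. Within 1 kb of a start in the authors' annotation, 4 of 189 genes (2.12%) were named, against 2.57% of all coding genes. Prdm9 was the only member of the 5 among them. By overlap with the gene body, 3 of 189 (1.59%) were, against 4.29%, with Txndc2 the only member. At a q of at most 0.01 there were 8 (4.23%), against 4.79%. Among intervals at or above the median fold there were 7 (3.70%), against 3.13% of all coding genes. These 7 include the members Meioc, Odf1 and Txndc2. The 189 genes hold the 5 members, chosen for having an interval, which raises each share, so nothing is read from these differences.

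The gene families of the members were counted against the same 6.1% of all coding genes. Each family holds a member that was chosen for its interval, so its share is raised by that choice and nothing is read from it. Of the Nanos family 1 of 3 (33.3%) was named, Nanos3, and of the Odf family 1 of 8 (12.5%), Odf1. Of 15 Prdm genes, Prdm9 and Prdm10 (13.3%) were named, the Prdm10 interval lying 34.9 kb from its start with a fold of 2.96. Of 21 thioredoxin-fold and thioredoxin reductase genes, Txndc2, Txnl1 and Nme9 (14.3%) were. The 3 Txnl1 intervals had folds of 3.76 to 6.07 at 59.6 to 143 kb from its start. The Nme9 intervals had folds of 5.88 and 3.8 at 2810 and 3795 bp.

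Genes that mark the somatic cells of the testis were counted in the same way, since the cells came from digested testes. Of 31 such genes 7 (22.6%) were named, against 6.1% of coding genes. Sertoli cell genes were 4 of 14, Gata4, Inhbb, Ctsl and Kitl, Leydig cell genes 0 of 7, and genes of peritubular, endothelial and macrophage cells 3 of 10, Acta2, Kdr and Cdh5. The folds at these genes ran from 3.54 to 7.73. Kdr, a VEGF receptor of endothelium, had 7.73 (5.36 to 10.8) at 11.9 kb from its start, which overlaps the 7.43 (5.22 to 10.3) of Txndc2 interval 4. Kitl had 6.50, Gata4, a Sertoli cell transcription factor, 5.74 and 3.54, Acta2, the smooth muscle actin, 5.61, Inhbb 5.07, and Ctsl 3.62. Cdh5, an endothelial cadherin, had 4.57 from 12 CHD4 fragments at 99.3 kb. Some of these genes were put in the lists with their intervals already known, which raises the 22.6%, so nothing is read from it. Kitl is also counted among the 9 named germ cell genes. A peak list gives binding and not expression, so it cannot show which cells the fragments came from, and the part of somatic cells in the germ cell intervals was not tested.

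**Figure D4:**
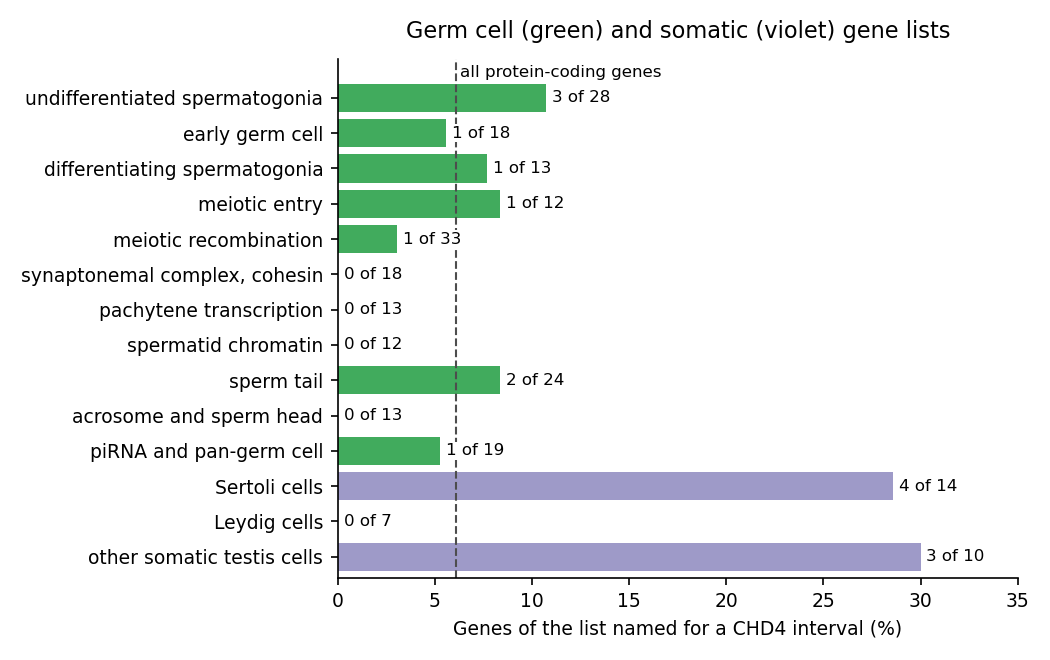
Share of each gene list named for a CHD4 interval in percent (x axis), for germ cell lists by stage (green) above somatic testis lists (violet), with named genes of all genes beside each bar and the share of all protein-coding genes (6.1%) dashed. Germ cell lists run from 0 to 3 of 28 genes, and the Sertoli and other somatic lists hold 4 of 14 and 3 of 10. The lists were drawn up with earlier results of these data known, so the shares are a description.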

How the data were processed

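CUT&Tag of CHD4 (2 samples) and IgG (2 samples) was deposited as 1 peak list. The submitters' processing notes name MACS2 2.1.2, Bowtie2 2.2.5, Trim Galore 0.5.0 and the build mm10. The sources used here do not state how duplicates were handled or replicates combined. The authors give, per the file headers, a fold (ratio of CHD4 to IgG at a summit) and its log2. The deposited −log10 p and −log10 q columns have lost their headers, and a deposited score equals 10 times −log10 q without decimals. The authors named each peak for the gene of nearest transcript start. The list has 2066 summits in 1849 intervals; an interval took its summit of highest fold.

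Fragments were recovered by solving fold and −log10 p together. In the model used, fold is the scaled CHD4 pileup over the IgG expectation, each with 1 added, and p is Poisson. A scale of 0.429 gave 1 whole-number solution at each of 2066 summits, to within 0.0005 on −log10 p. That scale makes the CHD4 library 2.33 times as deep as the IgG one. The procedure was tested on simulated data, at another scale and over narrower ranges of fragments and IgG expectation than the list has. That test therefore does not cover the summits of fewest or most fragments. Genes and promoter windows came from RefSeq (GRCm38.p6, whose chromosomes share mm10 coordinates), after 340 genes starting before 3 Mb on chromosomes other than Y were left out. List genes were matched by gene identifier, 5 of them through older names, and promoter windows were found for 4 of the 5 members.

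No test was run, as there are no values per replicate. Members and lists were chosen with earlier results of these data known. The named genes are the 5 members, list and family genes with an interval, neighbours of member intervals, and genes with as many intervals as Txndc2. Motifs, runs of neighbouring intervals and Cirbp were chosen after values were seen. Python 3.11.15, pandas 2.3.3, scipy 1.17.1 and matplotlib 3.10.9 were used.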

Additional observations from a re-analysis of the deposited data

How the results depend on the processing

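The number of member intervals, 10, was 13 by summits, 8 at a q of at most 0.01 and 7 among intervals at or above the median fold. It was 2 when an interval had to overlap the member gene by 1 bp or lie mostly inside it, 5 within 10 kb of the start and 1 within 1 kb; these settings take fewer intervals by construction. The median member fold of 5.52 was 5.40 as a mean over summits and 5.52 at the summit of highest −log10 q, and 8.50 as a fragment ratio without the added 1, which raises every fold over a low IgG expectation. Members above the median numbered 7 by fold, 7 by −log10 q and 5 against their own annotation class. The 9 germ cell genes named became 4 within 1 kb of a start and 3 by overlap with the gene body. No paired analysis was possible because the list has no value per sample, and for the same reason no replicate could be left out. Depth limits all calls: a summit of the list held as few as 12 CHD4 fragments, and a gene without an interval was not called at this depth.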
